A study of Mus musculus with 21 samples.

Results

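In hepatocyte-like (iHep) cells made with Foxa2 and Hnf4a, 5207 regions carried a Foxa2 peak where none of the 5 other Foxa peak lists of the study had one. They were found by pooling the 6 Foxa lists (Foxa1, Foxa2 and Foxa3, each 48 hours after infection and in iHep cells) and merging peaks that overlapped by 1 bp or more. The 5207 regions, called Foxa2-alone regions here, are 17.7% of all 29339 merged Foxa regions and 50.4% of the 10330 iHep Foxa2 peaks. Each consists of 1 iHep Foxa2 peak. The regions were chosen by the presence and absence of Foxa peaks, so their number, scores, widths and distances to Foxa peaks are given as a description, and only the Hnf4a peaks are a readout that the choice did not use.

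The cells began as fibroblasts of C57BL/6 mouse embryos, taken 13.5 days post coitum. Retroviruses brought in Hnf4a together with Foxa1 (the Foxa1 line), Foxa2 (the Foxa2 line) or Foxa3 (the Foxa3 line), so every group described here also carried introduced Hnf4a. Foxa and Hnf4a were mapped in each line by chromatin immunoprecipitation and sequencing (ChIP-seq), at 48 hours and in iHep cells, with 1 library for each of the 12 combinations. Each Foxa protein was precipitated with its own antibody in its own line, so line, antibody and protein cannot be told apart. The lists hold peak positions and the authors' score for each peak. They hold no reads, so depth is unknown, and no expression values, so the cell type was not checked against marker genes. A region without a peak in a list is one where no peak was called, which does not show that the protein was absent.

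Foxa proteins are forkhead transcription factors that can bind their sites in closed chromatin, for which they are known as pioneer factors, and Foxa1 and Foxa2 act together in liver development. Hnf4a is a nuclear receptor that maintains the expression of many hepatocyte genes. In adult liver, Foxa and Hnf4a are known to occupy many of the same enhancers.

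The remaining 5123 iHep Foxa2 peaks fell into regions with at least 1 other Foxa list, most often a Foxa1 list. A 48-hour Foxa1 peak lay in the region of 3581 iHep Foxa2 peaks (34.7% of all 10330), an iHep Foxa1 peak in that of 2922 (28.3%) and a 48-hour Foxa2 peak in that of 2151 (20.8%). The Foxa3 lists reached 143 iHep Foxa2 peaks at 48 hours (1.38% of all 10330) and 235 in iHep cells (2.27%). Regions with iHep Foxa1 as the single other list held 929 iHep Foxa2 peaks, and regions with 48-hour Foxa1 as the single other list held 945. The iHep Foxa1 list is the shortest of the 6, with 3435 peaks, and the iHep Foxa3 list the longest, with 12661.

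Foxa2-alone regions had lower scores than the other iHep Foxa2 peaks. Their median score was 16.3, with an interquartile range of 12.7 to 22.7, against 28.5 (17.7 to 47.9) for the other iHep Foxa2 peaks. Where 1 early list alone shared the region, the median was 17.7 with 48-hour Foxa2 and 21.4 with 48-hour Foxa1. With 48-hour Foxa3 alone, in 7 regions, it was 16.3. With iHep Foxa3 alone, in 60 regions, the median was 14.7. Medians were higher with iHep Foxa1 alone (27.8), with Foxa1 at both stages (41.1), and with 48-hour Foxa1, 48-hour Foxa2 and iHep Foxa1 together (52.2). In 10 bins of about equal size by score, the share of iHep Foxa2 peaks that were Foxa2-alone fell from 73.9% in the lowest (95% Wilson interval 71.2% to 76.5%) to 5.71% in the highest (4.45% to 7.30%). None of the 100 highest peaks was a Foxa2-alone region, and 56 of the highest 1000 were.

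**Figure D1:**
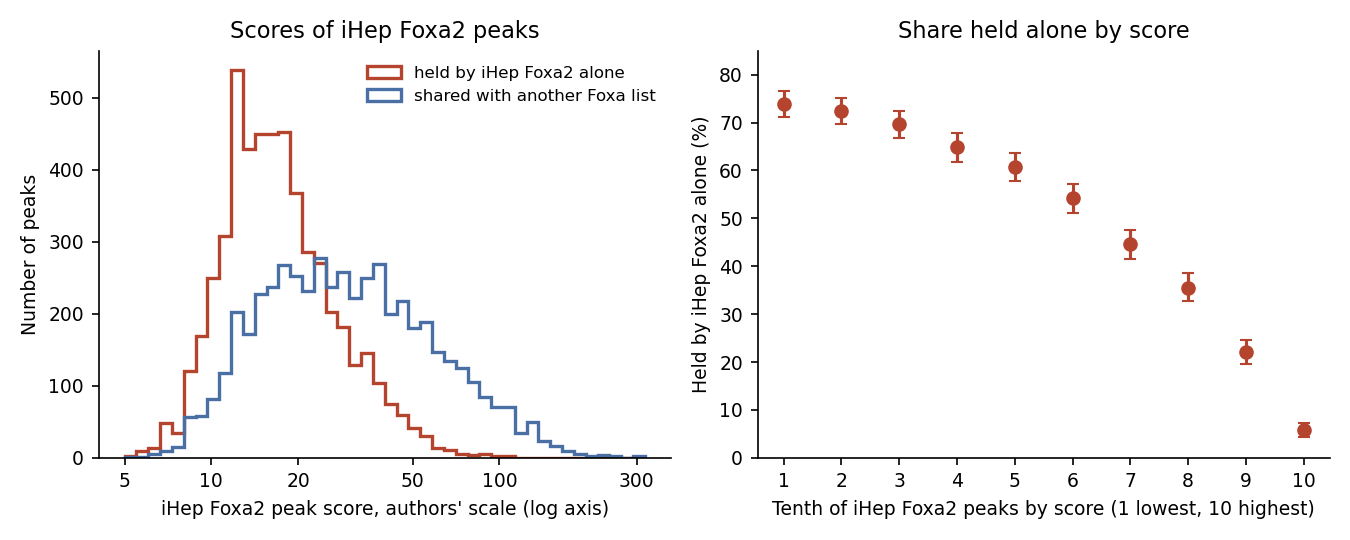
Left, the number of iHep Foxa2 peaks by the authors' score (log axis) for Foxa2-alone peaks and for peaks shared with another Foxa list. Right, the percentage of peaks that were Foxa2-alone in each of 10 bins of the list by score, with 95% Wilson intervals, falling from 73.9% in the lowest bin to 5.71% in the highest.

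They were also narrower, with a median width of 422 bp against 511 bp, but width followed score. Across Foxa2-alone regions the Spearman correlation of score and width was 0.65 (n = 5207), and across the other iHep Foxa2 peaks 0.78 (n = 5123), in both cases over peaks of 1 library. In 4 bins of about equal size by score, the widths of both sets were close, at 365 bp and 376 bp in the lowest bin and 558 bp and 592 bp in the highest. The widest Foxa2-alone region, at chr1:112392058-112393263 (mm9, as all positions here), measured 1206 bp with a score of 26.5. The narrowest measured 325 bp, the smallest width in the iHep Foxa2 list.

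The 10 highest scoring Foxa2-alone regions lay on 8 chromosomes and none overlapped an Hnf4a peak of any list. Such overlap was rare in general, so 10 regions say little about it. An iHep Hnf4a peak of any line was at 4.15% of Foxa2-alone regions and 6.56% of all iHep Foxa2 peaks. The highest, at chr8:7426399-7427065, had a score of 108 and ranked 193 in the iHep Foxa2 list. Its nearest Foxa neighbours were a 48-hour Foxa1 peak 7105 bp away and an iHep Foxa1 peak 7071 bp away. The next, at chr14:46929603-46930213, had a score of 104 and lay 31903 bp from the nearest 48-hour Foxa2 peak. A region at chr6:137839979-137840521 scored 98.1, and the nearest peak of any other Foxa list was a 48-hour Foxa3 peak 155931 bp away. A region at chr12:94063693-94064352 scored 97.7 and lay 9682 bp from a 48-hour Foxa1 peak, while the nearest iHep Foxa1 peak was 1797324 bp away. The last of the 10, at chr10:33273584-33274247 with a score of 87.3, lay 3667 bp from a 48-hour Foxa2 peak. High scoring Foxa2-alone regions thus included some close to an earlier Foxa peak and some far from any.

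Few regions sat near the edge of the 1 bp rule. Of the Foxa2-alone regions 27 (0.519%) had a peak of another Foxa list within 100 bp, and of the shared iHep Foxa2 peaks 28 (0.547%) overlapped other lists by no more than 100 bp. Just inside, a region at chr3:151854631-151854962 touched an iHep Foxa3 peak with 0 bp between them, and one at chr8:14405780-14406339 lay 3 bp from a 48-hour Foxa1 peak. Just outside, iHep Foxa2 peaks at chr5:116082804-116083154 and at chr11:84326342-84326713 overlapped an iHep Foxa3 and a 48-hour Foxa3 peak by 2 bp each.

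Of the Foxa2-alone regions, 4020 (77.2%) had no 48-hour Foxa peak within 10 kb. The median distance to the nearest 48-hour peak was 79795 bp for Foxa1, 96837 bp for Foxa2 and 184556 bp for Foxa3, and 32755 bp for any of these lists. Within 10 kb of a 48-hour Foxa2 peak lay 545 Foxa2-alone regions (10.5%, 9.66% to 11.3%), where 29.0% of all iHep Foxa2 peaks were that close or overlapped. For 48-hour Foxa1 the number was 635 (12.2%, 11.3% to 13.1%) against 42.4% of all, and for 48-hour Foxa3 380 (7.30%, 6.62% to 8.04%) against 8.47%. The shares over all iHep Foxa2 peaks include the overlaps that the choice removed, which raises them by construction. The 29.0% stands for 2998 iHep Foxa2 peaks, and 2151 had a 48-hour Foxa2 peak in their own merged region. For 48-hour Foxa1 these numbers were 4382 and 3581, and for 48-hour Foxa3 875 and 143. The gaps between the shares are therefore not read as a trait of the Foxa2-alone regions. A 48-hour peak of any Foxa protein was within 10 kb of 1187 Foxa2-alone regions (22.8%) and within 1 kb of 172 (3.30%).

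The nearest values were those of regions held by iHep Foxa1 and Foxa2 and no other list. Of those 929 regions 19.6% lay within 10 kb of a 48-hour Foxa peak, 9.47% within 10 kb of 48-hour Foxa2. Regions of the iHep Foxa3 list alone, 6908 in number, lay differently: 38.5% were within 10 kb of a 48-hour Foxa3 peak and 7.48% within 10 kb of a 48-hour Foxa2 peak. The score of Foxa2-alone regions varied little with the distance to any 48-hour Foxa peak. Its median was 15.5 within 1 kb, 16.4 from there to 10 kb, 16.3 up to 100 kb and 16.6 beyond, where 1044 regions lay.

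**Figure D2:**
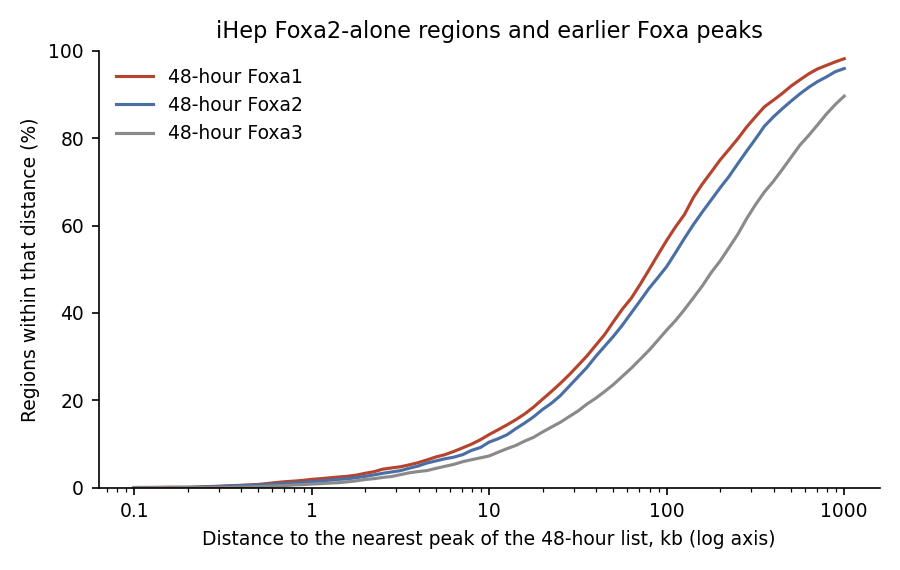
The percentage of the 5207 Foxa2-alone regions that lay within a given distance (kb, log axis) of the nearest peak of each 48-hour Foxa list. The curves for Foxa1 and Foxa2 run above that for Foxa3, with medians of 79795, 96837 and 184556 bp.

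Seen from the 48-hour lists, early Foxa1 and Foxa2 peaks with a Foxa2-alone region nearby were more often peaks of the iHep Foxa2 list themselves. Both the split and the overlap come from the lists that chose the regions. The shares are therefore a description, and their intervals cover counting error only. Of the 561 48-hour Foxa2 peaks with a Foxa2-alone region within 10 kb, 288 overlapped an iHep Foxa2 peak (51.3%, 47.2% to 55.4%). Of the 6266 without one, 1860 did (29.7%, 28.6% to 30.8%), and the share over the whole list was 31.5%. For 48-hour Foxa1 peaks the shares were 72.0% (455 of 632, 68.4% to 75.4%) and 50.8% (3125 of 6149, 49.6% to 52.1%), with 52.8% over the list. For 48-hour Foxa3 they were 2.67% (11 of 412, 1.497% to 4.72%) and 2.18% (115 of 5278, 1.82% to 2.61%), with overlapping intervals and 2.21% over the list. The scores of early peaks near and far from Foxa2-alone regions were alike, with medians of 16.3 and 16.1 for 48-hour Foxa2 and 18.3 in both cases for 48-hour Foxa1. The difference was not particular to 10 kb. With 100 kb as the limit the shares were 65.4% (1996 of 3053) and 42.5% for 48-hour Foxa1. For 48-hour Foxa2 they were 42.0% (1200 of 2854) and 23.9%.

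At 10 kb the difference was present in each of 4 bins of early score. Among 48-hour Foxa2 peaks the share rose from 36.1% (44 of 122) in the lowest bin to 67.1% (96 of 143) in the highest where a Foxa2-alone region was near, and from 18.5% to 45.2% where none was. Among 48-hour Foxa1 peaks it rose from 50.6% to 93.2% (165 of 177) and from 34.9% to 71.3%. These shares rest on the same lists that chose the regions and carry no test. iHep Foxa2 peaks also lay near each other in general, as given next, and the part of this in the difference was not tested.

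**Figure D3:**
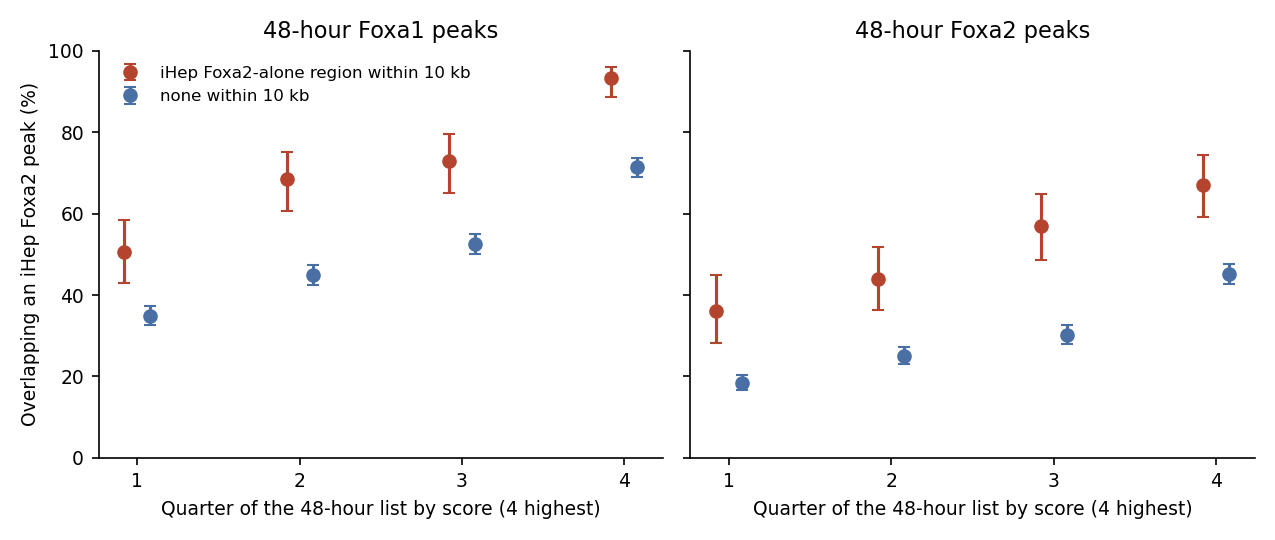
The percentage of 48-hour Foxa1 peaks (left) and 48-hour Foxa2 peaks (right) that overlapped an iHep Foxa2 peak, in 4 bins of the 48-hour list's score, for peaks with and without a Foxa2-alone region within 10 kb. Bars are 95% Wilson intervals, and the peaks with such a region are higher in each bin. Both the split and the overlap rest on the lists that chose the regions.

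Foxa2-alone regions were mostly single. Another Foxa2-alone region lay within 10 kb of 943 of them (18.1%, 17.1% to 19.2%), and the median gap between neighbours on a chromosome was 175596 bp. Counting any iHep Foxa2 peak as a neighbour, 28.2% of Foxa2-alone regions (27.0% to 29.4%) and 24.7% of the other iHep Foxa2 peaks (23.6% to 25.9%) had one within 10 kb, with 26.5% over the whole list. Joined across gaps of up to 10 kb, the 943 regions formed 444 runs, of which 395 were pairs and 44 triplets. The median score was 16.9 in runs and 16.3 outside them.

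The longest run held 5 regions at chr16:93716049-93738640, with scores of 16.3 to 35.2. No peak of another Foxa list fell inside it, and 1 iHep Hnf4a peak of the Foxa1 line did. A run of 4 at chr7:125384182-125402487 had scores of 15.4 to 30.5. It enclosed 3 iHep Foxa3 peaks and 2 iHep Hnf4a peaks each of the Foxa2 and Foxa3 lines. A run of 4 at chr19:19871552-19888025, with scores of 9.46 to 25.5, enclosed no peak of any other Foxa or Hnf4a list.

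Across chromosomes the share of iHep Foxa2 peaks that were Foxa2-alone ranged from 46.1% on chromosome 10 (262 of 568, 42.1% to 50.2%) to 58.2% on chromosome X (138 of 237, 51.9% to 64.3%). Chromosome X was the only one other than chromosome 1 (54.6%, 51.2% to 58.0%) whose interval lay above the 50.4% of the whole list. Scores on chromosome X were lower, with a median of 16.9 over its iHep Foxa2 peaks against 20.3 in the whole list, and 13.9 over its Foxa2-alone regions. The part of score in the higher share on chromosome X was not tested.

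Hnf4a peaks, which the choice of regions did not use, were rare at Foxa2-alone regions at 48 hours. The 48-hour Hnf4a list of the Foxa2 line overlapped 2 of the 5207 (0.0384%, 0.0105% to 0.140%), against 0.106% of all iHep Foxa2 peaks. That of the Foxa1 line overlapped 9 (0.173%, 0.0910% to 0.328%, against 0.387%). That of the Foxa3 line overlapped 0, which allows a share of up to 0.0576%, against 0.0484% of all iHep Foxa2 peaks. Shared iHep Foxa2 peaks held 48-hour Hnf4a of the Foxa1 line in 0.605% (0.427% to 0.858%), an interval above that of the Foxa2-alone regions, and of the Foxa2 line in 0.176% (0.0925% to 0.334%), an interval that overlaps theirs. The 48-hour Hnf4a lists are short, with 370 to 453 peaks. The 2 regions with early Hnf4a of the Foxa2 line lay at chr13:44504575-44505104 (Foxa2 score 22.1) and at chr1:88367076-88367421 (Foxa2 score 11.3). Both also held a 48-hour Hnf4a peak of the Foxa1 line and an iHep Hnf4a peak of the Foxa2 line.

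In iHep cells the Hnf4a list of the same line overlapped 166 Foxa2-alone regions (3.19%, 2.74% to 3.70%), while 4.95% of all iHep Foxa2 peaks and 6.73% of the shared ones (345 of 5123, 6.08% to 7.45%) held such a peak. The Hnf4a list of the Foxa1 line overlapped 99 Foxa2-alone regions (1.90%, 1.56% to 2.31%), against 3.53% of all and 5.19% of the shared peaks (4.62% to 5.83%). For the Foxa3 line it was 67 (1.29%, 1.01% to 1.63%), against 2.12% of all and 2.97% of the shared peaks (2.54% to 3.47%). In each line the interval of the Foxa2-alone regions lay below that of the shared peaks. The 3 comparisons use the same iHep Foxa2 list, and the Hnf4a lists differ in length, holding 1580, 2485 and 2506 peaks for Foxa1, Foxa2 and Foxa3. The titles give the iHep Foxa2 library the code R215 and the iHep Hnf4a library of that line R242, codes whose meaning is not given, and the part of this in the overlap was not tested.

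Among shared peaks the Hnf4a share differed by whether an iHep Foxa1 peak was there, a split made after the data were seen. Shared iHep Foxa2 peaks without iHep Foxa1 in their region held Hnf4a of the Foxa2 line in 3.41% of cases (75 of 2201, 2.73% to 4.25%), an interval that includes the 3.19% of the Foxa2-alone regions. Those with an iHep Foxa1 peak did so in 9.24% (270 of 2922, 8.24% to 10.3%). Foxa2 scores moved with this split, with medians of 20.4 without and 38.9 with iHep Foxa1. Regions held by iHep Foxa1 and iHep Foxa2 and no other list stood at 8.61% (80 of 929, 6.97% to 10.6%). Regions with a 48-hour Foxa1 peak as the single other peak stood at 2.54% (24 of 945, 1.71% to 3.75%), and those with 48-hour Foxa1 and 48-hour Foxa2 at 3.57% (24 of 673, 2.41% to 5.25%). Regions with a 48-hour Foxa2 peak as the single other peak were higher, at 4.90% (19 of 388, 3.16% to 7.52%), with an interval that overlaps those of the Foxa2-alone regions and of the peaks with iHep Foxa1 alone. For Hnf4a of the Foxa1 line they stood at 3.61% (14 of 388, 2.161% to 5.96%). The Hnf4a lists of the other lines gave the same order. For Hnf4a of the Foxa1 line they gave 1.90% at Foxa2-alone regions, 2.14% without and 7.49% with iHep Foxa1. For Hnf4a of the Foxa3 line they gave 1.29%, 1.77% and 3.87%.

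**Figure D4:**
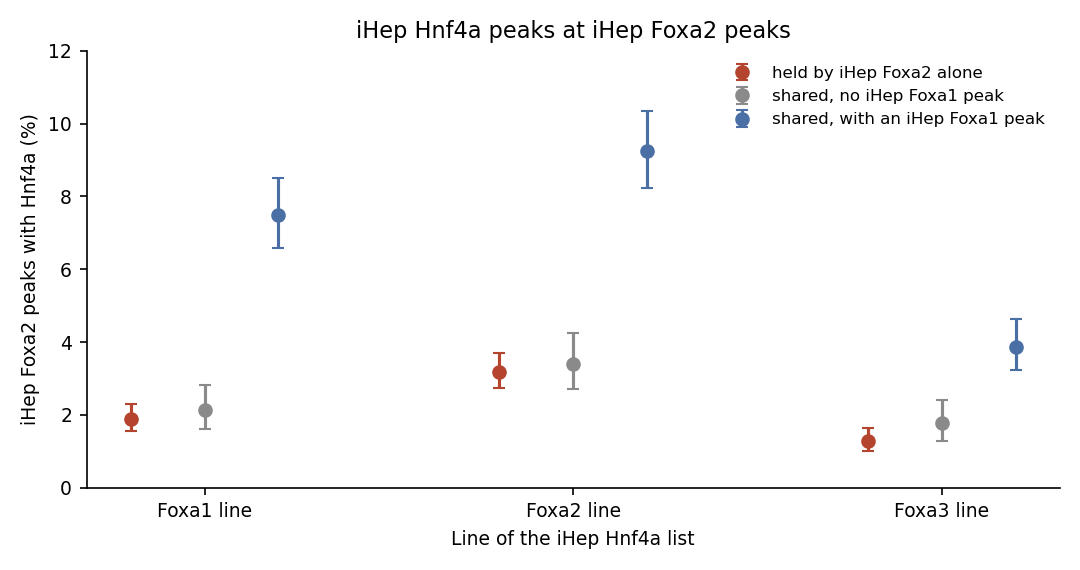
The percentage of iHep Foxa2 peaks that overlapped an iHep Hnf4a peak of each line, for Foxa2-alone regions and for shared peaks without and with an iHep Foxa1 peak in their region. Bars are 95% Wilson intervals, and in each line the peaks with iHep Foxa1 are highest, up to 9.24% in the Foxa2 line.

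The difference from the shared peaks was smaller at matched Foxa2 scores. The shared peaks were weighted to the spread of the Foxa2-alone regions over the 10 score bins. Then 5.06% held Hnf4a of the Foxa2 line, 7.61% of those with iHep Foxa1 and 3.32% of those without. For Hnf4a of the Foxa1 and Foxa3 lines all shared peaks fell to 4.31% and 2.53%. Shared peaks without iHep Foxa1 rose there instead, from 2.14% to 2.29% and from 1.77% to 1.91%. No interval was computed for the weighted values. Among Foxa2-alone regions the share did not rise with Foxa2 score. In 4 score bins it was 3.77% in the lowest (71 of 1884, 3.00% to 4.73%), 3.02% and 3.15% in the middle bins and 1.52% in the highest (7 of 460, 0.739% to 3.11%). For Hnf4a of the Foxa2 line, all shared peaks together stood at 4.84% (3.49% to 6.69%) in the lowest bin. In the middle bins they stood at 4.16% (3.06% to 5.63%) and 5.34% (4.27% to 6.66%). In these lower 3 bins each interval overlaps that of the Foxa2-alone regions. In the highest bin the shared peaks stood at 9.41% (8.24% to 10.7%), an interval above that of the Foxa2-alone regions. Scores in that bin run from 33.9 to 312, and the highest Foxa2-alone score was 108. Comparisons in the highest bin are therefore not matched for score. For Hnf4a of the Foxa1 line the intervals overlapped in the lowest bin only. In the middle bins Foxa2-alone regions stood at 1.57% (1.07% to 2.29%) and 2.15% (1.47% to 3.14%). Shared peaks stood there at 4.37% (3.24% to 5.88%) and 5.19% (4.14% to 6.50%). For Hnf4a of the Foxa3 line the intervals overlapped in the lower 3 bins. Among shared peaks with iHep Foxa1 the share with Hnf4a of the Foxa2 line was 7.53% in the lowest bin (14 of 186, 4.54% to 12.2%, overlapping the Foxa2-alone regions). In the middle bins it was 6.98% (4.77% to 10.1%) and 7.24% (5.53% to 9.41%), intervals above those of the Foxa2-alone regions. In the highest bin it was 10.7% (181 of 1687, 9.34% to 12.3%). Shared peaks without iHep Foxa1 stood at 4.21% in the highest bin (18 of 428, 2.68% to 6.55%), an interval that overlaps that of the Foxa2-alone regions. Any iHep Hnf4a peak, of whichever line, was at 94 of 1884 Foxa2-alone regions in the lowest bin (4.99%) and at 10 of 460 in the highest (2.17%, 1.19% to 3.95%). Over all iHep Foxa2 peaks it was 5.34% in the lowest bin, close to the Foxa2-alone regions, and 9.79% in the highest. For Hnf4a of the Foxa2 line, the values over all iHep Foxa2 peaks were 4.06% (105 of 2586) in the lowest bin and 8% (206 of 2575) in the highest.

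**Figure D5:**
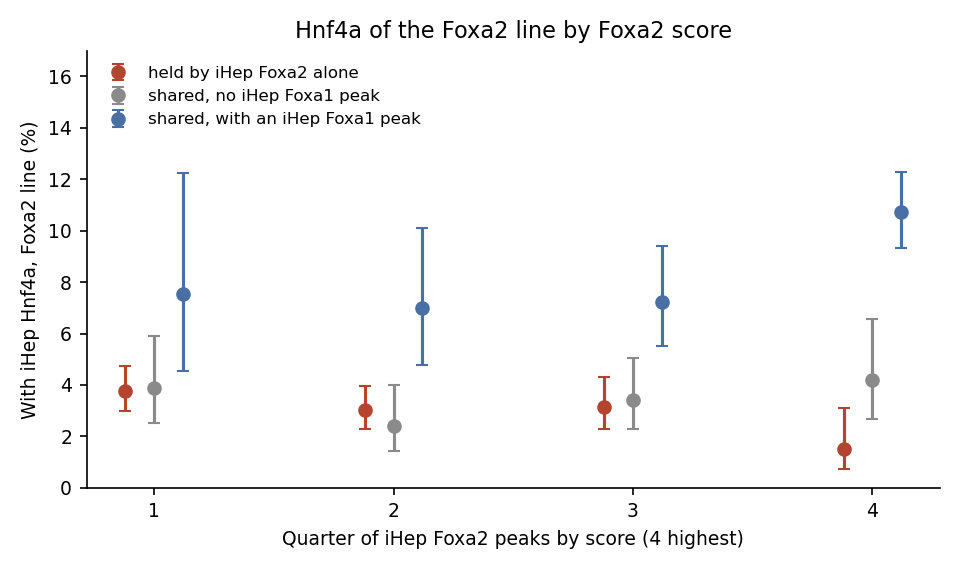
The percentage of iHep Foxa2 peaks overlapping an iHep Hnf4a peak of the Foxa2 line in 4 bins of Foxa2 score, for Foxa2-alone regions and for shared peaks without and with iHep Foxa1. Bars are 95% Wilson intervals, and in the highest bin the values are 1.52%, 4.21% and 10.7%. Scores in that bin run from 33.9 to 312 and are not matched between the sets.

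Seen by line, 216 Foxa2-alone regions (4.15%, 3.64% to 4.72%, against 6.56% of all iHep Foxa2 peaks) held an iHep Hnf4a peak of at least 1 line. Of these, 121 held Hnf4a of 1 line, 74 of 2 lines and 21 of all 3, against 239, 145 and 78 of the shared iHep Foxa2 peaks. Hnf4a of all 3 lines was thus at 0.403% of Foxa2-alone regions and 1.52% of shared peaks. The Foxa2 line alone accounted for 79 Foxa2-alone regions (1.52%, against 2.56% of shared peaks). The Foxa1 and Foxa2 lines together accounted for 45 (0.864% against 2.17%), the Foxa1 line alone for 25 (0.480% against 1.33%) and the Foxa2 and Foxa3 lines together for 21 (0.403% against 0.488%).

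In the Foxa2 line, Hnf4a peaks at Foxa2-alone regions had scores similar to those at shared Foxa2 peaks. Their median score was 14.6 (interquartile range 11.5 to 21.2, 166 peaks), against 14.8 (11.3 to 21.7, 345 peaks) at shared Foxa2 peaks and 12.4 (9.74 to 17.2, 1974 peaks) at no iHep Foxa2 peak. In the Foxa1 line the median was 11.2 at Foxa2-alone regions, 12.7 at shared peaks and 11.002 at no iHep Foxa2 peak. In the Foxa3 line it was 10.01, 10.5 and 10.1. In these lines the median at Foxa2-alone regions was thus nearest to that of Hnf4a peaks away from iHep Foxa2. The 48-hour Hnf4a list of the Foxa2 line, with 453 peaks, overlapped few of the line's iHep Hnf4a peaks anywhere. It overlapped 2 of the 166 at Foxa2-alone regions (1.20%, 0.331% to 4.29%) and 111 of all 2485 (4.47%). At shared Foxa2 peaks it overlapped 10 of 345 (2.90%, 1.58% to 5.25%), with an interval that overlaps that of the Foxa2-alone regions.

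Hnf4a and Foxa2 peaks of the Foxa2 line were nearly centred on each other. The median distance between centres at overlapping Foxa2-alone regions was 69.5 bp (interquartile range 31.5 to 115 bp), and 67.5 bp at shared peaks. With Hnf4a of the Foxa1 line it was 64.0 bp. With Hnf4a of the Foxa3 line it was 210.5 bp (168 to 252 bp), and 5 of 67 overlaps (7.46%) had centres within 100 bp, against 113 of 166 (68.1%) in the Foxa2 line. Shared Foxa2 peaks gave 213.75 bp with that list, with 27 of 152 centres (17.8%) within 100 bp. Hnf4a peaks of the Foxa3 line were narrower, with a median width of 198 bp at Foxa2-alone regions against 372.5 bp in the Foxa2 line. Of 83 Foxa2-alone regions with a Foxa3-line Hnf4a centre within 500 bp, 14 had one on each side (16.9%). Of 177 such shared Foxa2 peaks 22 did (12.4%), so this was not particular to Foxa2-alone regions. With Hnf4a of the Foxa2 line 0 of 166 Foxa2-alone regions and 0 of 348 shared peaks did. With Hnf4a of the Foxa1 line the counts were 0 of 103 and 0 of 274.

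The highest scoring Foxa2-alone regions with Hnf4a of the Foxa2 line ranked far below the top of the iHep Foxa2 list. The first lay at chr15:38386931-38387426, with a Foxa2 score of 53.2 (rank 1147) and an Hnf4a score of 20.01. A region at chr6:148517273-148518121, 849 bp wide, had scores of 52.0 and 8.34. A region at chr7:26584210-26584802 had scores of 43.4 and 16.7, and 48-hour and iHep Foxa1 peaks lay 539 bp and 519 bp from it. At chr12:3422652-3423185 the scores were 39.8 and 13.3. At chr9:17479927-17480612 they were 39.4 and 33.3, and an Hnf4a peak of the Foxa3 line lay 148 bp away.

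Among the 21 regions with Hnf4a in all 3 iHep lines, the highest by Foxa2 score lay at chr8:59968690-59969116. Its Foxa2 score was 28.4, and its Hnf4a scores were 27.6, 28.9 and 10.4, in the order Foxa1, Foxa2 and Foxa3 line. A region at chr10:26548498-26549017 (Foxa2 score 23.7) also held a 48-hour Hnf4a peak of the Foxa1 line. The strongest Hnf4a peak of the Foxa2 line at any Foxa2-alone region, with a score of 60.7, was at chr7:26804887-26805428, where the Foxa2 score was 23.1. There the Hnf4a score was 30.7 in the Foxa1 line and 13.7 in the Foxa3 line. Regions at chr4:111409890-111410535 and at chr6:128227410-128227866 had Foxa2 scores of 21.0 and 20.6. The 48-hour Foxa peak closest to any of these 5 regions was a Foxa1 peak 3856 bp from the last.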

How the data were processed

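Peak lists came with 13 of the 21 samples, and 12 were used. The deposited lists have no header, and the number in the fifth column was taken as the authors' score for each peak. Neither its computation nor the use of the inputs is stated in the sources used here. Named in the submitters' processing notes, without roles, are MACS2 2.1.0, BWA 0.6.2, mm9 and bedtools 2.16.2. Each list belongs to 1 sample, grouped by its title, and inputs and the del2 sample were not analysed here. Positions count the first base as 1, and distances are the bases between peak edges.

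With 1 library per group no test was possible, and shares carry 95% Wilson intervals that cover counting error over peaks only. Neighbouring peaks are not independent, so true uncertainty is larger. Depth is unknown. Score bins are of the whole iHep Foxa2 list, or of the 48-hour list where that is binned. The genes, sequences and motifs at these positions were not analysed here, as the gene tables at hand are not on mm9.

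Regions named are the 10 highest by score, the 5 highest with iHep Hnf4a of the Foxa2 line, up to 5 with Hnf4a in all 3 lines, up to 3 with 48-hour Hnf4a of the Foxa2 line, the 3 longest runs, 2 on each side of the overlap rule, and the widest and narrowest, of which some are printed. Regions and rules were chosen with earlier results of these data known, and the splits by nearby region and by iHep Foxa1 after the data were seen. The code was tested on simulated data, where all 136 true members among 3000 sites were returned. Alternatives changed the overlap, merging, width, score, length, chromosomes and lists. The software was pandas 2.3.3, SciPy 1.17.1, matplotlib 3.10.9 and NumPy 2.4.6 under Python 3.11.15.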

Additional observations from a re-analysis of the deposited data

How the results depend on the processing

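Each of 11 results was recomputed under 13 alternatives where these gave a value, and 109 values stayed within the interval of the original (for the number of regions, within 1.5 times), while 31 moved. With the upper 50% of each list by score 2683 regions were Foxa2-alone. Their Hnf4a shares were 2.72%, 1.49% and 0.969% for the iHep Foxa2, Foxa1 and Foxa3 lines and 0% for the 48-hour Foxa2 line, 6.52% lay within 10 kb of 48-hour Foxa2, 13.2% of any 48-hour Foxa, and 10.7% of another region of the kind. With the Foxa lists cut to 3435 peaks, and the Hnf4a lists to 1580 and 370, the number was 1063. These were a smaller share of the 3435 iHep Foxa2 peaks kept than the 50.4% in the full list. The values given for the upper 50% were here, in the same order, 2.07%, 1.22%, 0.659%, 0%, 6.59%, 13.5% and 4.89%. The Foxa3-line Hnf4a share was 0.704% where an overlap had to cover 50% of the shorter peak and 0.603% with centres within 200 bp. With peaks up to 500 bp apart merged, 21.4% lay near any 48-hour Foxa and 16.6% near each other. Without the iHep Foxa1 list the Hnf4a shares were 4.01% (Foxa2 line) and 2.74% (Foxa1 line), and 20.1% had a neighbour. Without 48-hour Foxa2, 16.8% lay near its peaks and 28.2% near any, and without 48-hour Foxa1 34.7% lay near any, by construction since overlaps then count. The excess of 48-hour Foxa1 peaks that overlapped iHep Foxa2 when a Foxa2-alone region was near, 21.2 percentage points, was 16.9 with centres within 200 bp, 26.3 in the upper 50% and 33.1 at equal length. For 48-hour Foxa2 it was 21.7, and 26.0 at equal length. The excess of Foxa2-line Hnf4a at the 2920 peaks that overlapped iHep Foxa1 directly, 6.06 points over Foxa2-alone regions, was 4.53 in the upper 50%. These 3 differences were added after the data were seen and could not be given where their own list was left out. They kept their direction wherever computed. Those of 48-hour Foxa1 and Foxa2 peaks rest only on the lists that chose the regions. They stay a description, and their kept direction is no support for them. Under all 13 alternatives the Foxa2-line Hnf4a share was lower at Foxa2-alone regions than over all iHep Foxa2 peaks. No paired analysis was possible because each group has 1 library. Other causes of these shifts were not tested.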
